A study of Rattus norvegicus with 8 samples.

Results

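The comparison described here sets the inflamed colon of rats fed alpha-linolenic acid (ALA) against the inflamed colon of rats fed sunflower oil, which is rich in n-6 fatty acids. Its members are the 4 arrays whose titles name the ALA colitic group (2 arrays) and the n-6 colitic group (2 arrays), out of 8 arrays in all. The animals were female Wistar rats of 14 weeks. The diets ran for 8 weeks. The colitic animals were given dextran sulfate sodium (DSS) at 5%, over 7 days. The fish oil colitic group had the same DSS treatment, and the healthy group ate sunflower oil and had no DSS. Their 4 arrays gave the background level beside each result. Each colitic group had 10 rats and the healthy group 6. Pools of RNA from 6 rats were hybridised in duplicate. The labels leave unsaid whether the duplicate arrays of a group carry 1 pool or separate pools. The p-values therefore describe array-to-array spread, which may be technical. A single slide, read in 1 scan, held the whole series. The ALA arrays lay in row 1, columns 1 and 2, and the n-6 arrays in row 2, columns 3 and 4, so that slide position and diet cannot be told apart. The study set each n-3 diet against the n-6 diet. The free-text description of the colitic arrays calls the tissue healthy, and the groups used here follow the titles and the treatment labels.

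DSS is a sulphated polymer that injures the lining of the large bowel when rats drink it. The injured mucosa loses epithelium, bleeds, draws in neutrophils and macrophages, and lays down matrix as it heals. ALA is the plant n-3 fatty acid, which desaturases and elongases lengthen toward eicosapentaenoic and docosahexaenoic acid. The same enzymes turn the n-6 linoleic acid of sunflower oil into arachidonic acid, the substrate from which cyclooxygenases and lipoxygenases make prostaglandins, thromboxane and leukotrienes. Haemoglobin messages come from nucleated red cell precursors and young red cells, and in a whole piece of tissue they report the red cell RNA that it holds.

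Levels are log2 processed signals minus the 75th percentile of the array, so a level of 0 is the signal that 75% of the probes lie below. A difference is the ALA mean minus the n-6 mean on this log2 scale, and n = 2 arrays per group throughout. Levels of different probes are not compared. Of 18171 genes tested, 13175 had a symbol. In limma's moderated test with Benjamini-Hochberg adjustment, 5 genes passed an adjusted p of 0.05, which is 0.0275% of all genes. Of these, 4 were lower with ALA (0.022%) and 1 was higher (0.0055%). The median difference over all genes was 0.07. The arrays of 1 diet differed from each other by a median of 0.484 (ALA) and 0.525 (n-6), against a median absolute difference of 0.320 between the diet means.

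The 4 genes that fell with ALA were all globins. Hba-a1 encodes an alpha chain of adult haemoglobin, Hbb-b1 and Hbb encode adult beta chains, and Hbe2 encodes an embryonic-type epsilon chain. Hba-a1 stood at 2.96 and 2.87 on the ALA arrays and at 7.06 and 6.50 on the n-6 arrays. Both n-6 arrays lay far above every other array, since fish oil gave 2.60 and 2.43 and healthy colon 1.95 and 1.81. The difference was -3.86 (SE 0.31, adjusted p = 0.0324 in limma), or 14.6-fold lower with ALA.

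Hbb-b1 gave 1.35 and 1.60 with ALA and 6.26 and 5.40 with n-6, a difference of -4.35 (SE 0.36, adjusted p = 0.0324) or 20.5-fold. Hbb gave 1.84 and 1.95 with ALA and 5.78 and 5.42 with n-6, a difference of -3.70 (SE 0.31, adjusted p = 0.0324) or 13-fold. In the deposited value table the Hbb difference was -1.44 (adjusted p = 0.940). Hbe2 gave -0.48 and -0.17 with ALA and 4.54 and 3.49 with n-6, a difference of -4.34 (SE 0.40, adjusted p = 0.0427). In each of the 4 genes the ALA, fish oil and healthy arrays lay together at the low end. Against fish oil the ALA arrays were between 0.40 and 0.74 higher in these genes, and the smallest adjusted p of the 4 was 0.515. All 4 were well above background on all 8 arrays, so these folds are measured on both sides.

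The sequences below show how closely an epsilon and a beta globin probe resemble each other. Both probes lie on chromosome 1 in the rn4 build of the files, that of Hbb-b1 at chr1:161597660-161597719 and that of Hbe2 at chr1:161648636-161648695. Each is 60 bases long. Capitals mark bases that both carry at the same place.
Hbb-b1: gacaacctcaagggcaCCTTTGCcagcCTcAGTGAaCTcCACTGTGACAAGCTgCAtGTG
Hbe2: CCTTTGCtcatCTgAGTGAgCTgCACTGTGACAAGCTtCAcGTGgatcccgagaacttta
Over the 44 bases where they overlap, 35 are shared (79.5%), among them the run CACTGTGACAAGCT. No other pair of globin probes from different genes shared more than 25 bases in an ungapped overlap. Whether RNA of 1 globin contributes to the other's signal was not tested, and the family members are best read as 1 group.

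Further probes of these genes were less uniform. The Hbb-b1 probe used here and another Hbb-b1 probe both differed, with -4.21 for the second (adjusted p = 0.0290 over all probes). The second Hba-a1 probe gave -3.70 (adjusted p = 0.209 over all probes) and the second Hbb probe -2.57 (adjusted p = 0.745). Direction was the same for all of them. In rn4 the Hbb probes lie at chr1:161584872-161584931 and chr1:161620134-161620193, with both Hbb-b1 probes between them. Whether probes of the same name read 1 gene was not tested.

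The 250 bases before the annotated starts of 3 of these genes, taken from RefSeq on the GRCr8 build, show letters that the globin promoters share. A set of 4 short motifs was searched on both strands. They were the CACCC box, the CCAAT box, the GATAA core that GATA factors read, and the ATAAA found in TATA-type boxes, and the last 2 can overlap. Matches are in capitals.
Hbb, chr1:167663722-167663971, minus strand: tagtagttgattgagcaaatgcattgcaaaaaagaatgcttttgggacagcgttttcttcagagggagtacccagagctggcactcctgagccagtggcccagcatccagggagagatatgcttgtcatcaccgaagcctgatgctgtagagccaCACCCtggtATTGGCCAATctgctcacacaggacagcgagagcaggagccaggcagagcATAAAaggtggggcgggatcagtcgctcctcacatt
Hbb-b1, chr1:167643521-167643770, minus strand: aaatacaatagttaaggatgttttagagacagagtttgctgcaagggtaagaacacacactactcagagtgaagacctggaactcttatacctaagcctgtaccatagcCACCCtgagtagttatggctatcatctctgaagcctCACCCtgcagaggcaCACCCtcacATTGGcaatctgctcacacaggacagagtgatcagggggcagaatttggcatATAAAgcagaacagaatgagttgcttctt
Hba-a1, chr10:15842581-15842830, minus strand: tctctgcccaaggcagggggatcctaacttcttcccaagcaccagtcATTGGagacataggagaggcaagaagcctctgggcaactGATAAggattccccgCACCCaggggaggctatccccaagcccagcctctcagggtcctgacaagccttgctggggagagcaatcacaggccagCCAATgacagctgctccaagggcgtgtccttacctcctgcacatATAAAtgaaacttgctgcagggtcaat
All 3 hold an ATAAA that begins 27 to 36 bases before the start, and a CCAAT on either strand beginning 71 to 86 bases before it. Hbb and Hbb-b1 carry CACCC just upstream of that, beginning 95 and 90 bases before the start. Only Hba-a1 of these 3 windows held a GATAA. Of 33469 rat promoter windows of this length, 49.2% hold CACCC, 34.0% CCAAT, 23.5% GATAA and 39.3% ATAAA. A match describes the letters and is no evidence of binding.

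**Figure D1:**
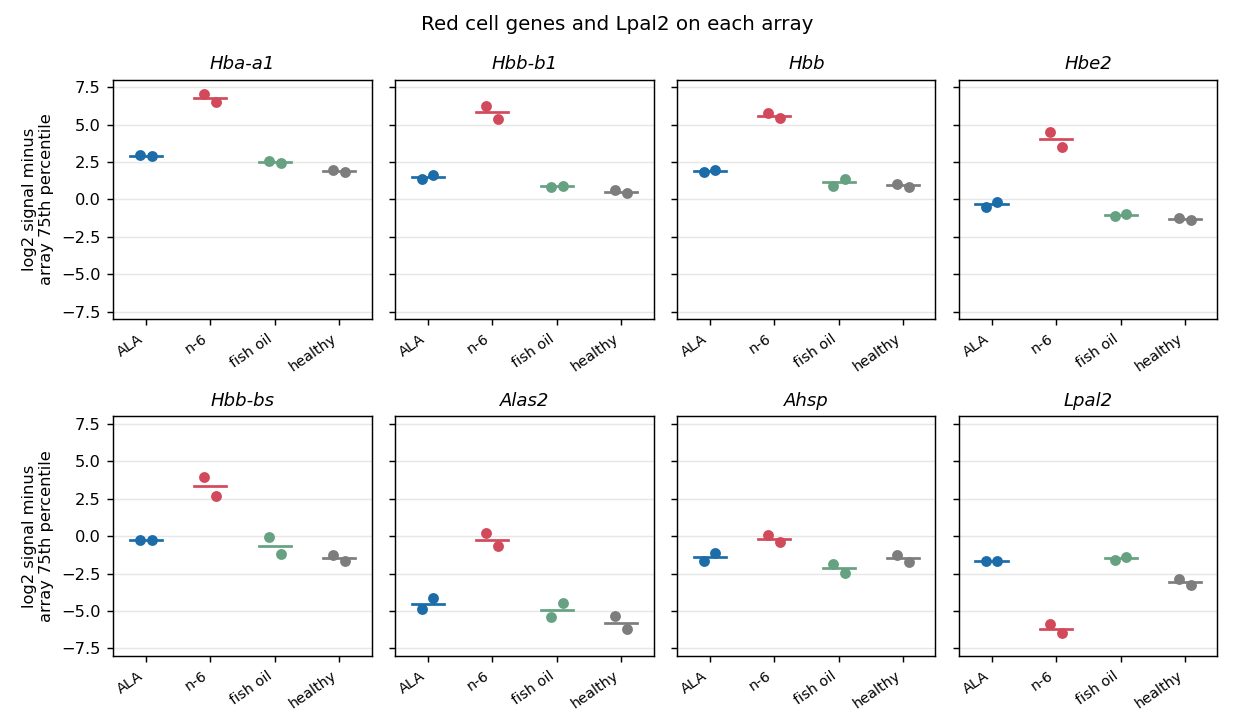
Levels of 7 red cell genes and Lpal2 on each array (log2 signal minus the array's 75th percentile), with points for the 2 arrays of a group and a line at their mean. In the red cell genes the n-6 arrays lie above the other 6, and in Lpal2 they lie below the other 6.

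Other red cell genes had the same order of arrays without passing the test. Alas2 makes the first, rate-limiting enzyme of haem synthesis in red cell precursors. It stood at -4.88 and -4.15 with ALA and at 0.18 and -0.67 with n-6, beside -5.39 and -4.46 with fish oil and -5.36 and -6.19 in healthy colon. The n-6 arrays again lay above all others, with a difference of -4.27 (SE 0.52, adjusted p = 0.153). Unlike the called globins, Alas2 was well above background on only 4 arrays of the series. Under normexp background correction its difference was -2.15, so the size depends on how background is treated. The Alas2 probe on chromosome X (rn4 build, chrX:39810353-39810412) is shown because Alas2 is not a globin gene.
Alas2: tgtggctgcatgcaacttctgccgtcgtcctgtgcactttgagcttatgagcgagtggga
Hbb-bs, another adult beta chain, differed by -3.56 (SE 0.54, adjusted p = 0.456). Ahsp, the chaperone that holds free alpha globin, gave -1.68 and -1.11 with ALA and 0.05 and -0.40 with n-6 (difference -1.22, adjusted p = 0.837). Bpgm, which makes the 2,3-bisphosphoglycerate that lowers oxygen affinity, differed by -0.57 (adjusted p = 0.885).

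The rest of the red cell list was flat or mixed. Of 15 members tested out of 34 listed, 4 passed in the lower direction and none in the higher. Arrays of the diets did not overlap in 8 members that were lower with ALA, or 53.3%, against 13.1% of all genes. The transcription factors Gata1 (0.96, adjusted p = 0.971), Klf1 (0.68, adjusted p = 0.972) and Tal1 (0.04, adjusted p = 0.995) had differences above 0, with a second Tal1 probe at -0.59. Tfrc, the transferrin receptor, gave 0.54, Tspan33 gave 0.45 and Epor, the erythropoietin receptor, gave -0.08. Car1 is made by red cells and by colonocytes, and gave 0.75 with wide scatter, as described below. Slc4a1, Epb42, Rhag, Rhd, Sptb, Kel, Ermap, Trim10 and Nfe2 were on the array but did not reach signal well above background on both arrays of any group, nor did Hbz, Hbe1, Hbg1 and Hba-a3. In pooled tissue, fewer red cells and less globin RNA per cell cannot be told apart.

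The 1 gene that rose with ALA was Lpal2. It stood at -1.67 and -1.64 with ALA, close to the -1.61 and -1.37 of fish oil. On the n-6 arrays it was not well above background, with -5.87 and -6.51, and healthy colon lay between at -2.87 and -3.28. The difference was 4.53 (SE 0.34, adjusted p = 0.0324), which with the background bound is at least 16.7-fold. Under normexp background correction the difference was 1.34 (adjusted p = 0.941, against 0.0111 to 0.941 over the 17 alternatives that gave a value). Its probe lies at chr4:169218749-169218808 in rn4.

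Rln1, which encodes the peptide hormone relaxin, was next in line and just missed the threshold. It read -3.17 and -3.44 with ALA and was not well above background with n-6 (-6.94 and -6.34). Fish oil (-5.74 and -5.79) and healthy colon (-6.50 and -6.68) were also low, so here the ALA arrays stood apart from all 6 others. The difference was 3.33 (SE 0.32, adjusted p = 0.0515), at least 6.04-fold. With normexp it was 0.56. Against fish oil the difference was 2.46 (adjusted p = 0.444).

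None of the 5 calls survived the loss of any single array. Leaving out each of the 8 arrays in turn gave 0 called genes in every case, including when a fish oil or healthy array was dropped, while the differences of the 4 globins stayed between -4.86 and -3.52. At an unadjusted p under 0.05 there were 1055 genes (5.81%), against 908.55 that a test with no true difference would give. Of these, 580 were higher (3.19%) and 475 lower (2.61%) with ALA. ALA against fish oil and ALA against healthy colon gave 0 genes each (0%) at an adjusted p of 0.05.

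Genes whose ALA and n-6 arrays did not overlap numbered 5447 (30.0%), with 3069 higher and 2378 lower. Requiring also a difference of 1 or more left 979 higher (5.39%) and 406 lower (2.23%) with ALA. This 70.7% share of higher genes depended on the scaling. It was 43.1% with median scaling, 43.4% with quantile normalization and 41.3% with normexp, and 49.2% without ALA replicate 1. Median scaling moved the median of all genes from 0.07 to -0.13, so differences under about 0.2 have no settled direction. Spots well above background numbered 42997 and 42644 on the ALA arrays, and 42539 and 38280 on the n-6 arrays, with n-6 replicate 2 the poorest of the 4. Their part in the split was not tested.

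In most of the genes that were 1 or more lower with ALA, the n-6 arrays were the ones that stood apart. Both n-6 arrays lay outside the range of all 6 others in 272 of those 406 genes (67.0%), and both ALA arrays in 64 (15.8%). Among the 979 higher genes the shares were 38.2% for n-6 and 23.9% for ALA.

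Among symbol genes that were well above background on all 4 arrays, none other than the globins passed, and those with the smallest p follow. Fosl1, an AP-1 transcription factor subunit switched on by growth and injury signals, read -3.68 and -3.85 with ALA and -1.34 and -1.31 with n-6 (difference -2.44, SE 0.35, adjusted p = 0.387). The diets were more than 2 log2 units apart, and fish oil (-3.65 and -4.26) lay with ALA. Tnfrsf12a, the receptor for the cytokine TWEAK, gave -0.76 and 0.13 with ALA and 2.23 and 1.74 with n-6 (difference -2.30, adjusted p = 0.837). Atp1b2, a beta subunit of the sodium pump, gave -2.08 (adjusted p = 0.761). Col5a3, a chain of type V collagen, gave -1.79 (adjusted p = 0.837).

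On the higher side, Nptx2, a secreted pentraxin, gave 1.07 and 1.60 with ALA and -1.89 and -1.22 with n-6 (difference 2.89, SE 0.47, adjusted p = 0.670). Pck1 and Fbp1 encode enzymes of gluconeogenesis. Pck1 read 0.04 and 0.62 with ALA and -2.95 and -1.54 with n-6 (difference 2.57, adjusted p = 0.837). Fbp1 read -0.21 and -0.89 with ALA and -2.73 and -2.18 with n-6 (difference 1.91, adjusted p = 0.837). For Nptx2, Pck1 and Fbp1 the n-6 arrays were below all 6 others. Kcne3, a potassium channel subunit that supports chloride secretion, gave 2.72 (adjusted p = 0.837), and Galnt6, which starts mucin-type O-glycans, gave 1.66 (adjusted p = 0.837). Gprin3 (2.34), Krt79 (2.24), Morn1 (1.85), Pank3 (1.37), Odad4 (1.22) and Caskin2 (1.09) completed the set with Bcl2, the inhibitor of apoptosis. Bcl2 read -3.34 and -2.86 with ALA and -4.89 and -4.22 with n-6 (difference 1.46, adjusted p = 0.837), and the ALA arrays were above all 6 others.

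Signal that reached the background threshold with only 1 of the diets was lopsided. Of 13175 symbol genes, 300 had both ALA arrays and neither n-6 array well above background. The other way there were 33, and 11289 had all 4 arrays above it. N-6 replicate 2 had fewer spots well above background (38280) than n-6 replicate 1 (42539) and the ALA arrays (42997 and 42644). The part of this dimmer array in the split was not tested. Beside Lpal2 and Rln1, the strongest on the ALA side were Krt15 (9.49-fold), Ciart (6.62), Pvalb (5.69), C2cd4b (at least 4.65), Lcorl (at least 4.19) and Rgsl1 (4.07). For Krt15, Ciart, Pvalb and Rgsl1 the value is the measured fold and no minimum. With normexp the log2 differences of all 6 genes were 0.39 to 1.67, so the folds depend on how background is treated. Krt15 and Pvalb rested on ALA replicate 1, with -4.54 on replicate 2 for Krt15, and -1.13 against -5.10 for Pvalb. On the n-6 side, Them7 read -2.91 and -2.47 with n-6 and -6.11 and -5.96 with ALA, at least 8.04-fold (adjusted p = 0.153). Clec4d, a C-type lectin of myeloid cells, was at least 3.16-fold brighter with n-6, and the transcription factor Gsc measured 4.94-fold brighter. With normexp the log2 difference of Clec4d was -0.49. Over the alternatives that of Them7 shrank to -0.77 and that of Gsc to -0.50, so these folds depend on the processing too. Vom2r28 (2.96) and Lrrc17 (2.88) were the others outside the Ly49 family.

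The enzymes that lengthen and desaturate ALA did not pass the test. Fads2, the delta-6 desaturase that takes the first step, read -4.32 and -4.01 with ALA and -3.90 and -5.31 with n-6 (difference 0.44, SE 0.61, adjusted p = 0.980). Fads1, the delta-5 desaturase, read -2.08 and -1.71 with ALA and -2.25 and -2.44 with n-6 (difference 0.45, SE 0.32, adjusted p = 0.939). Elovl5 gave 0.17 (adjusted p = 0.987), and Fads3 gave 0.26 (adjusted p = 0.986). Elovl2, which acts on chains of 20 and 22 carbons, read -1.45 and -2.55 with ALA and -1.03 and -0.92 with n-6 (difference -1.02, SE 0.47, adjusted p = 0.869).

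The saturated and monounsaturated branch was more scattered. Scd, the stearoyl-CoA desaturase, read 0.20 and 4.34 with ALA and -0.11 and 1.94 with n-6, so that the arrays of a diet lay further apart than the diets (difference 1.36, SE 1.52). Scd2 gave 0.77 (adjusted p = 0.875), Elovl6 -0.30 and Elovl1 -0.45, with second probes of Elovl6 (0.41) and Elovl1 (0.12) above 0. Elovl7 was well above background with ALA alone, and measured 2.32-fold brighter (adjusted p = 0.844). Of 10 members tested, 0 passed, and the list's median was 0.35 (0.03 without ALA replicate 2).

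Lipid and cholesterol synthesis genes were mostly above 0, by little. Of 23 tested, 20 had a difference above 0, with a median of 0.29, against 0.07 over all genes. The sign of the median turned when ALA replicate 1 (-0.02) or n-6 replicate 1 (-0.08) was dropped. Dhcr7, which makes cholesterol in the last step of its pathway, gave 0.72 (adjusted p = 0.851). Lpin1, a phosphatidate phosphatase, was well above background with ALA alone, at least 1.86-fold brighter (adjusted p = 0.837). Over the alternatives the Lpin1 difference ranged from 0.18 to 1.79. Srebf2 and Srebf1, the transcription factors of sterol and fatty acid synthesis, gave 0.35 and 0.39, and Fasn, the fatty acid synthase, gave 0.67, with adjusted p between 0.961 and 0.969.

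Genes of fatty acid oxidation and ketone production gave a mixed picture. Angptl4, an inhibitor of lipoprotein lipase, read 0.67 and 0.80 with ALA and 2.87 and 2.54 with n-6 (difference -1.97, SE 0.48, adjusted p = 0.837). Of 38 genes tested, 27 were above 0, the median was 0.24 (-0.23 without n-6 replicate 1), and 0 passed.

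The list of lipid-sensing receptors and their partners included 3 genes with an unadjusted p under 0.05 out of 15 tested (against 5.81% of all genes). Ppara, the nuclear receptor that drives fatty acid oxidation, was well above background with ALA alone (-3.73 and -4.26 against -6.01 and -5.01), and measured 2.86-fold brighter (adjusted p = 0.837). Healthy colon gave -4.07 and -3.77. Its coactivator Ppargc1a gave 2.02 (adjusted p = 0.851), with -7.01 and -4.14 on the n-6 arrays. Rxrg, a retinoid X receptor, gave -1.25 (adjusted p = 0.837). Pparg read 1.32 and 3.30 with ALA and -0.23 and 3.19 with n-6 (difference 0.83). Ffar4, the receptor for long-chain n-3 fatty acids, gave -0.45 (adjusted p = 0.961), and Ffar2, the short-chain fatty acid receptor, 1.33 (adjusted p = 0.864).

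The eicosanoid pathway was where the diets' fatty acids enter signalling, and none of its 30 tested members passed. An unadjusted p under 0.05 was reached by 5 of 30 members lower with ALA (against 2.61% of all genes) and 2 of 30 higher (against 3.19%). The median was -0.19, and -0.07 without ALA replicate 2. Pla2g4a is the cytosolic phospholipase that frees arachidonic acid from membranes. It read -3.12 and -3.08 with ALA and -0.77 and -1.72 with n-6, with both n-6 arrays above the other 6 (difference -1.86, SE 0.40, adjusted p = 0.837). The secreted phospholipases Pla2g2a (-0.04), Pla2g5 (-0.75) and Pla2g10 (1.24) had standard errors of 0.53 to 0.95. The calcium-independent Pla2g6 gave -0.33, and Pla2g7, which breaks down platelet-activating factor, gave -0.20.

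Ptgs1, the constitutive cyclooxygenase, read 1.11 and 0.57 with ALA and 2.65 and 2.22 with n-6 (difference -1.60, SE 0.45, adjusted p = 0.837). The ALA arrays lay near healthy colon (1.25 and 0.47), while fish oil read 1.26 and 2.11. A second Ptgs1 probe gave 0.01 (SE 0.39), so the 2 probes of this gene disagree. Ptgs2, the inducible cyclooxygenase, was not well above background on both arrays of any group. Ptgis, the prostacyclin synthase, gave -0.97 (adjusted p = 0.840), and Tbxas1, the thromboxane synthase, -0.62 (adjusted p = 0.899). The prostaglandin E synthases differed among themselves, with Ptges at -0.39, Ptges2 at 0.77 (adjusted p = 0.856) and Ptges3 at -0.18. Hpgds and Ptgds, which make prostaglandin D, gave -0.32 and 0.31. Of the genes that clear prostaglandins, Hpgd gave 0.73, the transporter Slco2a1 gave 0.34, and the exporter Abcc4 gave -0.39.

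Among prostanoid receptors, the prostaglandin E receptors EP2 and EP3 gave the widest gaps. Ptger2 (EP2) read -3.11 and -3.08 with ALA and -1.30 and -1.76 with n-6 (difference -1.57, SE 0.31, adjusted p = 0.837). The fish oil and healthy arrays, between -3.31 and -2.89, lay with ALA. Ptger3 (EP3) read -5.10 and -2.98 with ALA and -1.71 and -1.22 with n-6 (difference -2.58, SE 0.68, adjusted p = 0.837). A second Ptger3 probe gave -0.71 (SE 0.40). Tbxa2r, the thromboxane receptor, read -4.41 and -4.13 with ALA and -5.17 and -5.53 with n-6 (difference 1.08, adjusted p = 0.837). Ptger4 (-0.24), Ptger1 (0.08), Ptgdr (-0.38) and Ptgir (-0.17) lay within 1 SE of 0.

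The leukotriene branch showed small differences against its errors. Alox5, the 5-lipoxygenase, gave 0.23 (SE 0.60), its partner Alox5ap -0.23 (SE 0.31) and Lta4h, which makes leukotriene B4, -0.19 (SE 0.31). Ltc4s gave 0.02, Alox12b 0.21 and Alox12 0.82 (SE 0.64). Alox15, Ephx2, Ltb4r, Cysltr1 and Cysltr2 did not pass the filter on dim probes, nor did the receptor Ptgfr.

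**Figure D2:**
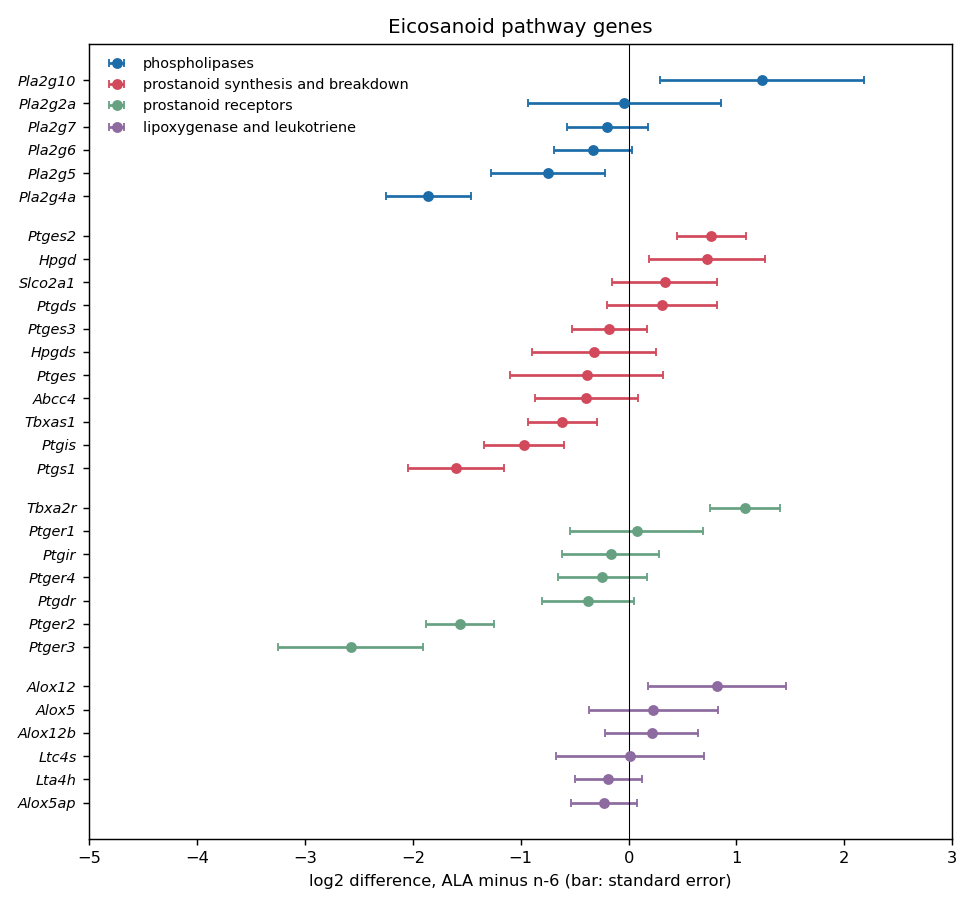
Differences of 30 eicosanoid pathway genes (ALA minus n-6, log2) with their limma standard errors, coloured by role. Pla2g4a, Ptgs1, Ptger2 and Ptger3 lie furthest below 0, while the lipoxygenase genes lie around it.

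Matrix genes had the lowest median of the lists, -0.82 against 0.07 for all genes. Of 31 tested, none passed the adjusted threshold. An unadjusted p under 0.05 was reached by 10 lower with ALA (against 2.61% of all genes) and 1 higher. The arrays did not overlap in 16 that were lower (51.6%, against 13.1% of all genes) and 1 that was higher. The median stayed below 0 under every alternative, between -1.23 and -0.42, with the weakest value when ALA replicate 2 was left out.

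Timp1, an inhibitor of matrix metalloproteases that climbs in inflamed gut, read 4.21 and 3.62 with ALA and 6.14 and 5.66 with n-6 (difference -1.98, SE 0.44, adjusted p = 0.837). Fish oil read 4.24 and 3.25 and healthy colon 2.36 and 2.03, so the ALA arrays lay with fish oil and between n-6 and healthy. Tnc, the wound matrix protein tenascin C, read -1.20 and -1.18 with ALA and 1.63 and -0.04 with n-6 (difference -1.98, SE 0.52, adjusted p = 0.837).

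The fibrillar collagen chains named here were also lower with ALA than with n-6. Col3a1 read 5.00 and 4.60 with ALA and 6.46 and 5.77 with n-6 (difference -1.32, adjusted p = 0.837). Col1a1 gave -1.15 (adjusted p = 0.872), Col5a1 -1.18 (adjusted p = 0.837), and Col1a2 was lower on both ALA arrays (adjusted p = 0.837). The basement membrane chains Col4a1 and Col4a2 gave -0.98 and -0.71, with the sign of Col4a1 turned in the deposited value table (0.09). Fn1, fibronectin, gave -1.25, and Fbn1, fibrillin, gave -1.19. Second probes gave smaller values for Fn1 (-0.16, SE 0.42) and Col4a1 (-0.28, SE 0.36). Metalloproteases were mixed, with 5 of 8 below 0 and a median of -0.37. Mmp7, the epithelial matrilysin, read -1.09 and -2.30 with ALA and -3.30 and -2.82 with n-6 (difference 1.36, adjusted p = 0.856). Mmp12 gave 1.57 and Mmp9 1.11. Mmp14 (-0.82) and Mmp2 (-0.67) lay below 0, while Mmp3 (-0.25), Mmp10 (-1.09) and Mmp13 (-0.50) had standard errors of 1.74, 1.13 and 1.38, larger than their differences.

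Markers of fibroblasts lay in the same direction. In 9 of 14 markers tested (64.3%, against 13.1% of all genes) the arrays did not overlap and ALA was lower, the median was -0.53, and 0 passed. Pi16, a marker of adventitial fibroblasts, read -0.37 and -0.88 with ALA and 1.93 and 0.41 with n-6 (difference -1.79, adjusted p = 0.837). A second Pi16 probe gave -0.04 (SE 0.53), and without n-6 replicate 1 the difference of the first was -1.03. Dpt, dermatopontin, gave -0.77 (adjusted p = 0.840). Vim (-0.15), Dcn (-0.33) and Lum (-0.24), which fibroblasts carry in abundance, lay within 1 SE of 0. Enteric glia and neuron genes had a median of -0.60 over 17 tested (-0.20 without n-6 replicate 2). Sox10, the glial transcription factor, read -1.54 and -1.76 with ALA and -0.59 and -0.49 with n-6 (difference -1.11, adjusted p = 0.837), Snap25 gave -1.44 (second probe -0.55) and Tubb3 -1.05. The 12 smooth muscle genes had a median of -0.30 (-0.12 without ALA replicate 2). Whether the amount of bowel wall in the tissue has a part in the matrix differences was not tested.

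**Figure D3:**
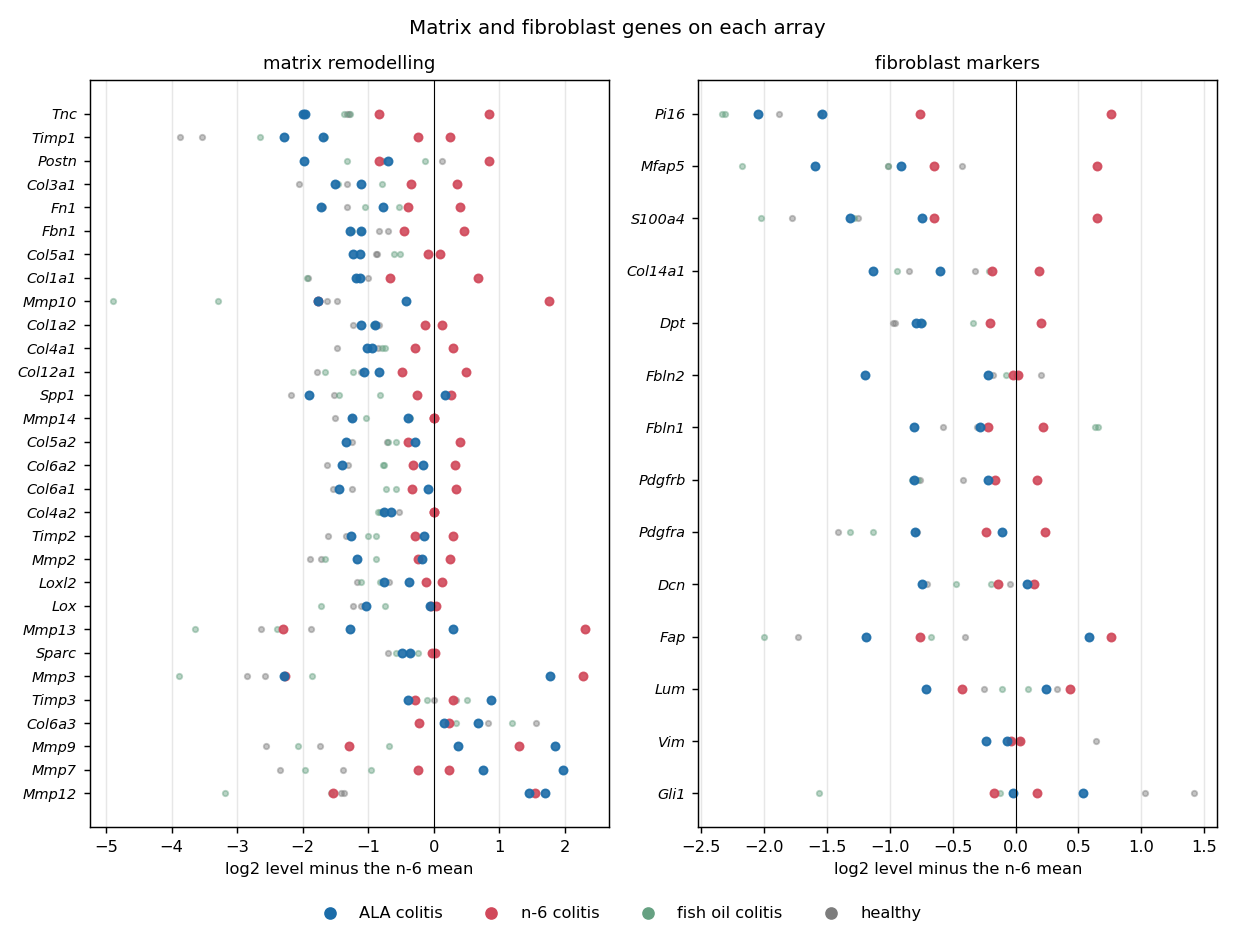
Levels of 30 of the 31 matrix genes tested and 14 fibroblast markers on each array, as log2 differences from the mean of the n-6 arrays, with the fish oil and healthy arrays in smaller points. For Timp1, Tnc, the Col1 and Col3 chains and Pi16 both ALA points lie below both n-6 points, while Mmp7 lies the other way.

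Genes of clotting and fibrinolysis had a median of -0.58 over 11 tested (-0.37 without n-6 replicate 2). F3, tissue factor, which starts clotting after injury, read 1.78 and 1.61 with ALA and 3.89 and 2.69 with n-6 (difference -1.59, SE 0.42, adjusted p = 0.837). Both n-6 arrays were the brightest of the 8. Thbd, thrombomodulin, gave -1.29 (adjusted p = 0.837), with 0.09 in the deposited value table. The plasminogen activators Plat and Plau gave -0.40 and -0.42, with standard errors of 0.90 and 0.66. Lpal2 is also a member of this list and is the 1 member that passed.

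Cytokines and chemokines gave no called gene among 36 tested, and their median of -0.29 turned to 0.05 without n-6 replicate 1. Il1rn, the decoy that blocks the interleukin-1 receptor, read 2.04 and 2.17 with ALA and 4.09 and 3.82 with n-6 (difference -1.85, SE 0.42, adjusted p = 0.837). Healthy colon read 0.72 and 0.86. Il1b itself read 1.28 and 1.13 with ALA and 2.70 and 1.11 with n-6 (difference -0.70, SE 0.54), and Tnf gave -0.35 (SE 0.35). Csf1, the macrophage growth factor, gave -0.87 (adjusted p = 0.840). Ccl2 (-1.32) and Ccl7 (-1.94), which draw monocytes, did not overlap between the diets but had adjusted p of 0.890 and 0.869. Ifng gave 0.91 (adjusted p = 0.837), was well above background on 1 ALA array only, and had the opposite sign in the deposited value table (-0.20).

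Cxcl1, Cxcl2 and Cxcl3, which attract neutrophils, and Pf4, a chemokine grouped with them in the list, were all below 0. These 4 had a median of -0.96 and 0 calls. Arrays did not overlap in 2 of them (50%, against 13.1% of all genes), Cxcl3 (-0.86, adjusted p = 0.978) and Pf4 (-1.45, adjusted p = 0.856). The other 2 were highest in the first array of each diet. Cxcl1 read 1.19 and -2.01 with ALA and 2.58 and -1.28 with n-6, beside -4.70 and -4.54 in healthy colon. Cxcl2 read 2.82 and 0.63 with ALA and 3.33 and 1.46 with n-6. For Cxcl1 and Cxcl2 the arrays of both diets overlapped, and the 4 colitic arrays all lay above healthy colon, which gave -3.37 and -3.34 for Cxcl2. Of the neutrophil receptors, C5ar1, the receptor for complement C5a, read -1.15 and -1.22 with ALA and 0.44 and -0.26 with n-6 (difference -1.27, adjusted p = 0.837). Cxcr1 was well above background with n-6 alone, at least 2.01-fold (adjusted p = 0.837). Over the alternatives the Cxcr1 difference ranged from -4.28 to -0.47. The neutrophil list had a median of -0.24 over 16 tested, and its 5 receptors a median of -0.75. Its 6 granule and cytosolic proteins had a median of 0.25 and its 5 oxidase genes a median of -0.002. In both of these groups the arrays of the diets overlapped in every member.

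Macrophage markers were lower with ALA without overlap in 6 of 12 (50%, against 13.1% of all genes), with a median of -0.50. Siglec1, a sialic acid binding lectin of resident macrophages, read -2.79 and -2.14 with ALA and -1.60 and -0.66 with n-6 (difference -1.34, adjusted p = 0.837). Cd163, the haptoglobin-haemoglobin scavenger receptor, read 0.48 and -1.48 with ALA and 0.90 and 0.81 with n-6 (difference -1.36, adjusted p = 0.890). Cd68 gave -0.44, C1qa -0.32, C1qb -0.24 and C1qc 0.15, so the more general macrophage genes lay near the errors. Csf1r was above 0 on both its probes (0.42, SE 0.65, and 0.49, SE 0.43). Of the 12 markers, 10 were below 0 and 2 above. Hdc, the histamine-forming enzyme of mast cells, gave -1.72 (adjusted p = 0.837), within a mast cell list whose median was -0.73 over 9 tested, -0.15 without n-6 replicate 2 and -1.25 without n-6 replicate 1.

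Immediate early genes, which respond within minutes to growth factors, were lower with ALA without overlap in 7 of 13 (53.8%, against 13.1% of all genes). Atf3, a stress-induced transcription factor, read 1.48 and 0.91 with ALA and 2.40 and 2.79 with n-6 (difference -1.40, adjusted p = 0.837). Healthy colon gave 2.36 and 1.66 for Atf3 and fish oil 2.28 and 1.12, so that 1 fish oil array lay within the ALA range. Egr1 read 1.13 and 1.43 with ALA and 2.57 and 2.67 with n-6 (difference -1.34, adjusted p = 0.889). A second Egr1 probe had the opposite sign (0.41, SE 0.70). Egr2 gave -1.24 and Fos -0.78, while Jun (0.27) and Fosb (0.51) lay on the other side of 0. The median was -0.61, and -0.32 without ALA replicate 2.

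Circadian genes ran higher with ALA without overlap in 6 of 12 (50%, against 16.9% of all genes), with a median of 0.57 (0.33 without n-6 replicate 1) and 0 calls. Nr1d1 encodes REV-ERB alpha, the repressor of the clock. It read -1.76 and -2.03 with ALA, -3.59 and -2.67 with n-6, and -1.46 and -0.94 in healthy colon (difference 1.23, SE 0.56, adjusted p = 0.869). Dbp, an output factor of the clock, read 2.91 and 3.64 with ALA and 2.42 and 2.48 with n-6, beside 3.93 and 4.01 in healthy colon (difference 0.83, adjusted p = 0.947). Bmal1, which peaks in the opposite phase, gave -0.01, and Per2 gave 0.48. Fish oil arrays straddled both, with 2.25 and 4.16 for Dbp.

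**Figure D4:**
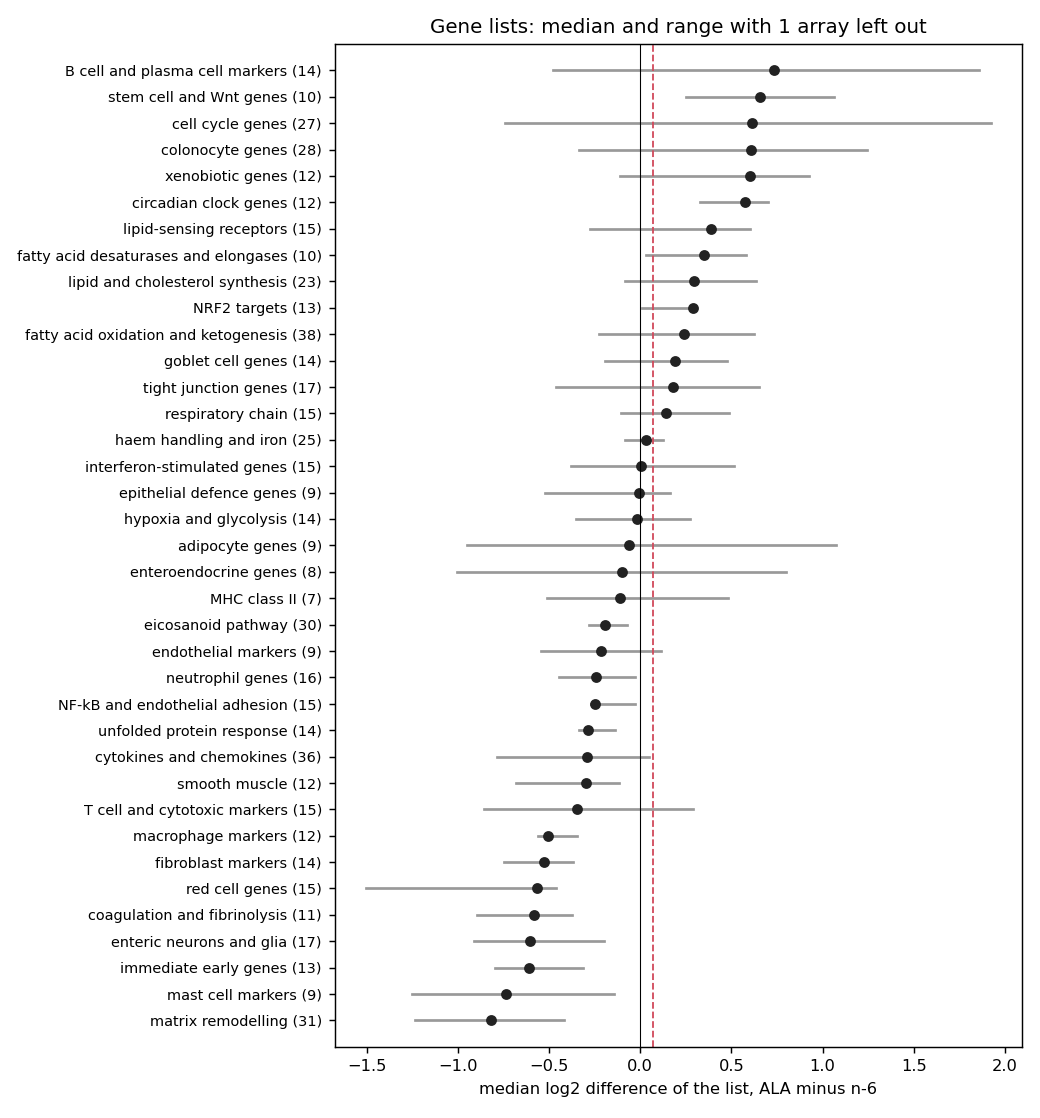
Median log2 difference (ALA minus n-6) of the 37 gene lists, with the number of genes tested in parentheses and a bar for the range when each of the 8 arrays was left out in turn. The dashed line marks the median of all genes, 0.07. Matrix, mast cell and immediate early genes lie lowest, and the bars of the B cell and cell cycle lists cross 0.

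The Ly49 receptors of natural killer cells were divided. In some members the ALA arrays stood apart from all 6 others, and in other members the n-6 arrays did. The family was singled out after its values were seen, and its members were then taken by name. Of 14 members tested, 10 were lower with ALA without overlap (71.4%, against 13.1% of all genes) and 2 were higher (against 16.9%). The median was -2.06, and 0 passed. The filter on dim probes kept Ly49i9 and Ly49i3 only through the n-6 arrays, where they were high. It kept Ly49si1, Ly49i7 and Ly49si2 only through the ALA arrays. The filter thus favoured the direction of these members, and the shares are no test of the family. Ly49i2, an inhibitory receptor, read -4.34 and -4.75 with ALA and -2.72 and -1.59 with n-6, beside -2.50 and -2.08 with fish oil and -1.59 and -1.78 in healthy colon (difference -2.39, SE 0.43, adjusted p = 0.812). The ALA arrays were thus below all 6 others. The same held for Ly49s6, which read -3.61 and -2.99 with ALA and -1.29 and 0.51 with n-6 (difference -2.91, adjusted p = 0.837).

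Ly49s3 was the third such member, with -4.87 and -4.92 with ALA and -4.09 or higher on every other array (difference -3.18, adjusted p = 0.837). Ly49i9 was well above background on both n-6 arrays (-1.12 and -1.80) and on neither ALA array (-4.60 and -7.35), at least 15.4-fold. Ly49i4 (10.1-fold as measured), Klra1 (at least 3.17-fold) and Ly49i3 (at least 3.03-fold) were also well above background with n-6 and not with ALA. In these, 1 or more fish oil or healthy arrays reached the ALA level. Over the alternatives the differences of Ly49i4, Klra1 and Ly49i3 shrank to -1.10, -0.22 and -0.35. Ly49s5 (1.53) and Ly49si1 (1.11) went the other way, and Ly49i7 (0.39) and Ly49si2 (-0.10) overlapped. In Ly49i9, Klra17 (-1.03), Klra2 (-2.68) and Klra22 (-0.28) both n-6 arrays lay above all other arrays, and in Ly49s5 below them. The family's genes are near-identical in stretches, so which member a probe reads is uncertain. The T cell and cytotoxic list had a median of -0.35 over 15 tested (0.29 without ALA replicate 1), with no member whose arrays did not overlap.

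Some gene groups differed more between the arrays of 1 diet than between the diets. All 27 cell cycle genes tested were above 0 with a median of 0.61, yet the arrays overlapped in all but 1 of them. Mki67, the proliferation marker, read 2.17 and 3.17 with ALA and 3.53 and 1.01 with n-6. Top2a, the mitotic topoisomerase, read -0.35 and 1.22 with ALA and 1.64 and -3.31 with n-6. N-6 replicate 1 was the highest of the 4 and n-6 replicate 2 the lowest. The list's median was -0.74 without n-6 replicate 2 and 1.92 without n-6 replicate 1.

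B cell genes split the same arrays. Cd79b, a signalling chain of the B cell receptor, read -0.71 and 1.83 with ALA and 1.48 and -3.39 with n-6. Cr2, the complement receptor of follicular B cells and dendritic cells, read -2.85 and 0.15 with ALA and -0.48 and -6.56 with n-6. ALA replicate 2 and n-6 replicate 1 were thus bright together, ALA replicate 1 lay between, and n-6 replicate 2 was dim. The B cell role of the list had a median of 0.99 over 9 genes, with 0 without overlap.

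Transport genes of the colon surface joined the arrays in another pattern. Atp12a, the colonic proton-potassium pump, read 6.98 and -6.56 with ALA and 5.15 and -0.00 with n-6. Scnn1g, a subunit of the sodium channel ENaC, read 3.24 and -5.05 with ALA and 1.56 and -2.86 with n-6, and Scnn1b read 0.14 and -5.73 with ALA and -1.94 and -5.99 with n-6. Car1, carbonic anhydrase 1, ran opposite, with 1.41 and 6.77 for ALA and 0.67 and 6.01 for n-6. In these 4 genes, picked out after their values were seen, replicate 1 of ALA resembled replicate 1 of n-6, and the fish oil and healthy arrays did not split the same way for Scnn1g, Scnn1b or Car1. Within each diet the arrays of these genes lay further apart than the diet means. Their part in the other results was not tested.

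**Figure D5:**
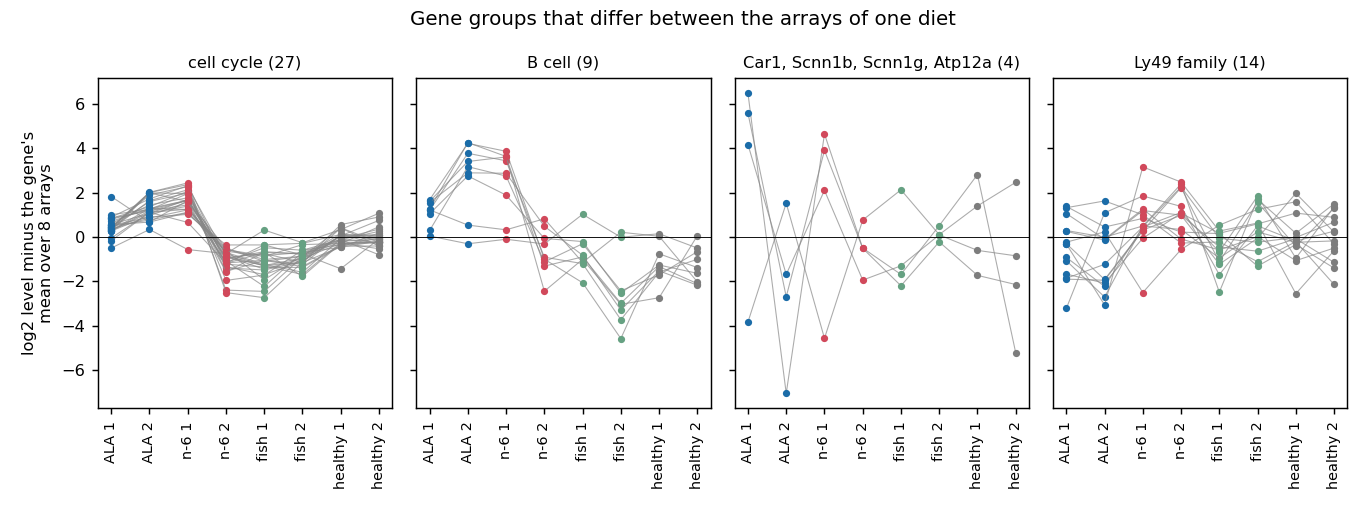
Levels of cell cycle genes, B cell genes, 4 colon surface genes and the Ly49 family on each array, as log2 differences from each gene's mean over 8 arrays. In the first 2 panels ALA replicate 2 and n-6 replicate 1 lie high, and in the third panel 3 genes are high and Car1 low on replicate 1 of both diets.

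The epithelium showed little that exceeded this scatter. Of the genes listed for colonocytes, Krt20 lay between 6.46 and 8.10 and Guca2a between 6.52 and 8.37 on the 4 arrays. Car4 lay between 5.66 and 6.90 and Slc26a3 between 1.65 and 3.46, but Aqp8 only between -6.10 and -3.62. Fabp2, listed as a small intestine marker, lay between 0.66 and 3.08. Of 28 colonocyte genes tested, 24 were above 0 with a median of 0.61, and 5 did not overlap. The median turned to -0.33 when n-6 replicate 1 was left out. Axin2, a target of Wnt signalling in crypts, was well above background with ALA alone (-3.87 and -3.81 against -6.55 and -5.09), at least 3.54-fold (adjusted p = 0.837). With normexp the log2 difference of Axin2 was 0.30. Smoc2, a crypt base gene, gave -1.42 (adjusted p = 0.837), and -0.72 with a second probe. Goblet cell genes (median 0.19 over 14), tight junction genes (0.18 over 17), genes of hypoxia and glycolysis (-0.02 over 14), interferon-stimulated genes (0.01 over 15) and haem handling genes (0.03 over 25) lay near the median of all genes.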

How the data were processed

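RNA from pooled rat colon was measured on 1-colour Agilent arrays, scanned and extracted with Agilent Feature Extraction 11.5.1.1 per the file headers. The deposited scanner files hold processed signal intensity, background-corrected by that software. Each intensity was taken to log2 and the array's 75th percentile was subtracted. Control spots were left out, spots of a probe were averaged, and a probe was kept where any group had both its arrays well above background (20801 probes). For a gene with several probes the one with the highest mean signal stood for it, leaving 18171 genes. Probes were named by accession through RefSeq (18355), another accession (445), the file's symbol (2535) or a synonym (409), and 8623 had no name. All 8 arrays were fitted in limma 3.58.1 (R 4.3.3) with lmFit and eBayes (residual df 4, prior df 3.01), with Benjamini-Hochberg adjustment over all genes. The number of arrays limits the precision. The steps were tested on simulated data.

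Named genes were those with an adjusted p under 0.05, then the 12 higher and 12 lower genes of smallest p with no overlap, a difference of at least 1 and signal above background on all 4 arrays. Up to 8 per direction were detected with 1 diet alone, ranked by bound, which is the bright group's mean against the higher of the dim probe's own signal and the lowest signal well above background. Where the dim probe's own signal was the higher, the bound is the measured fold and no minimum. Bounds hold for the main setting only. Within lists, members with an unadjusted p under 0.05 and no overlap were named, or up to 3 of highest signal, and every desaturase, eicosanoid and red cell gene. Further list members, the other Ly49 genes and the colon surface genes were named after their values were seen. Members and lists were chosen with earlier results of these data known.

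The authors' deposited value table holds log2 values for 26205 symbols and served as an alternative. Its column medians were -2.93 and -3.18 (healthy), -2.89 and -3.15 (ALA), -2.93 and -3.10 (fish oil) and -3.14 and -3.15 (n-6). Its 75th percentiles lay between 0.0032 and 0.00898, and its levels on each array correlated with the scanner values at 0.982 to 0.990 over 18159 genes. Scale and centring of the levels thus matched. A correlation of levels does not show that differences between the diets match. How the deposited value table joins several probes was not stated. Some genes of these lists are not reported here by name.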

Additional observations from a re-analysis of the deposited data

How the results depend on the processing

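With limma, 5 genes passed in the main setting. The count was 0 with no filter on dim probes (973 genes at an unadjusted p under 0.05), the mean of all probes of a gene (1040), the 4 compared arrays alone (764) and the deposited value table (1052). A fit with the replicate block also gave 0 (1280 at an unadjusted p under 0.05). Same-numbered ALA and n-6 arrays, taken as deviations from their diet means, correlated at 0.059, necessarily the same value for either number. That value leaves out the fish oil and healthy arrays, and a low value over all genes cannot exclude pairing in some genes. The colon surface genes picked out above were alike on same-numbered ALA and n-6 arrays. Whether the replicate numbers mark a shared step was not tested. Leaving out 1 array gave 0 to 0 called genes, 844 to 1850 genes at an unadjusted p under 0.05, and 1385 to 3275 genes with no overlap and a difference of at least 1. That last count was 1385 in the main setting, 286 with normexp, 2399 with no filter and 569 with all 8 arrays above background. Normexp left 511 genes at an unadjusted p under 0.05, against 1055. The sign turned in the deposited value table for Col4a1 (0.088), Ifng (-0.20) and Thbd (0.089). Of the other values of named genes, 1644 kept direction and side of the threshold, 66 fell short of it and 1 (Rln1) passed it. Only the 5 called genes could fall short, so all 66 were theirs. Hba-a1, Hbb and Hbb-b1 each passed in 6 of 19 alternatives, Hbe2 in 5 of 19 and Lpal2 in 4 of 17. The cause of these shifts was not tested.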
